A study of Caenorhabditis elegans with 2 samples.

Results

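Candidate binding regions of FAX-1 whose summits lay inside coding exons or 3' UTRs were described in late embryos of C. elegans. A region belonged to this set when its summit fell in a coding exon, or else in a 3' UTR, of a protein-coding gene and was over 500 bp from the 5' end of every protein-coding gene and from every tRNA, snoRNA and snRNA gene. The rule used position alone, so signal, rank and recurrence were free to vary. It chose 2031 of 12691 nuclear regions (16%), of which 1657 had their summit in a coding exon and 374 in a 3' UTR. These are called exonic regions here. The region just inside the limit at col-139 had its summit 502 bp from the nearest gene start and a signal of 48.1, and those at nap-1 and F31E3.12 lay 501 bp away with signals of 45.6 and 35.9. Just outside it were regions at F35E2.5 (496 bp, signal 44.4), F58H1.3 (498 bp, 41.3) and ceh-39 (500 bp, 34.6).

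The chromatin came from whole hermaphrodite worms of strain OP164 at the late embryonic stage, 4 h after synchronization by egg bleaching. The strain stably carries a transgene for FAX-1 with a GFP-FLAG tag at its C-terminus, and an antibody against GFP was used for the precipitation of chromatin sheared with a sonicator microtip. There was 1 group of 2 biological replicates, so no groups were compared and no test between conditions exists. Peaks were called against a control file, and an untagged strain was not analysed here. Because whole animals were used, a region cannot be assigned to a cell type. The lists held 15446 candidates in replicate 1, 18555 in replicate 2 and 13841 in the pooled replicates. The authors' optimal list after an irreproducible discovery rate (IDR) filter, a filter on reproducibility, held 830 pooled peaks. Peaks in that list need not rank alike in the 2 replicates. The candidate lists were called loosely and are labelled as holding background as well as peaks. Read depth is unknown, and the signal is the score of the authors' peak caller, whose scale is not stated. It was therefore compared across lists by rank only.

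FAX-1 is a nuclear receptor of the NR2E class that acts in C. elegans in the pathfinding of axons and in the identity of certain interneurons. Transcription factors are mostly studied at promoters and enhancers, which in the compact worm genome often lie close upstream of a gene or in its introns. Coding exons are constrained by the protein they encode, and 3' UTRs hold the signals for the end of the transcript and for its regulation.

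Sequences at or near the summits of some of the leading coding regions are shown, in cuticle collagen genes and in other genes. Each is a stretch of 30 bases of coding exon read on the coding strand of its host gene, from the WBcel235 (ce11) sequence of RefSeq. For bca-2, on the minus strand, the stretch over the summit base (capital) lies at IV:17099310-17099339, and a separate stretch beside it, at IV:17099266-17099295, holds a GAGAGA run (capitals). For pks-1 (X:5429493-5429522, plus strand), Y53F4B.9 (II:15008652-15008681, minus strand) and hsp-90 (V:14686889-14686918, plus strand), the capital is the summit base. For the cuticle collagens col-108 (IV:1769344-1769373, plus strand) and col-128 (IV:11551065-11551094, minus strand), capitals mark in-frame GGN codons, which encode the glycine that recurs in every triplet of a collagen helix.
bca-2 summit: aatcgcgagaaagagAactggaagccacgc
bca-2 beside the summit: cgagacaccacgGAGAGAagatctcgtcga
pks-1: gcgacatatgtcaaccaGcagtaccccttc
Y53F4B.9: gaaattcacagctttTtcgcgccgagatct
hsp-90: aaggatgaggagaagaAggagggagaggtc
col-108: GGAaacccaGGAgcaccgGGAtcccctGGA
col-128: GGAgaagaaGGAccagttGGAccatcgGGA
Each of the 2 collagen stretches holds 4 such codons.

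Exonic regions were weak candidates. Their median pooled signal was 37.9, with quartiles of 34.4 and 44.3, against 40.6 over all nuclear regions, 39.0 in introns and 40.7 between genes away from gene starts, and 46.0 within 500 bp of a gene start or small RNA gene. The weakest candidate in the pooled list had a signal of 31.6. Coding and 3' UTR regions were alike in this, with medians of 38.0 and 37.8. None of the 250 strongest nuclear regions was exonic. The exonic share was 1.1% of the 1000 strongest and 3.85% of the 2000 strongest, and reached 16% over the whole list.

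**Figure D1:**
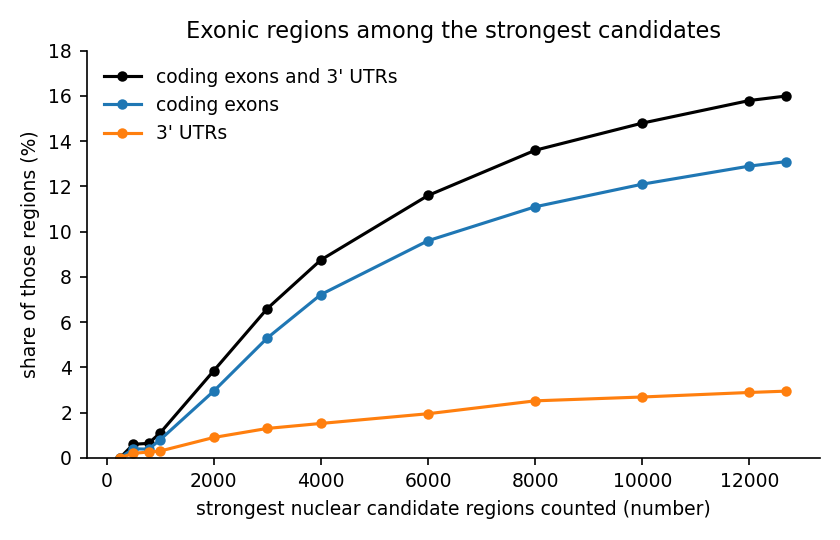
The share of exonic regions (vertical axis, percent) is plotted among the N strongest nuclear candidate regions (horizontal axis), with coding exons and 3' UTRs also drawn separately. The share is 0% among the 250 strongest, 3.85% among the 2000 strongest and 16% among all 12691.

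Of the 2031 exonic regions, 5 overlapped the optimal IDR list. That is 0.246% (95% Wilson interval 0.105 to 0.575%), against 6.17% of all nuclear regions. The share was 2.52% in introns, 3.55% between genes and 14.8% near gene starts and small RNA genes. All intervals here cover counting error only. The lowest signal in the IDR list was 98.3, so the few exonic regions in it were those with the highest pooled signals.

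The strongest exonic region lay at IV:17099106-17099749, with its summit in coding exon 3 of 7 of bca-2, a beta carbonic anhydrase gene. Its signal was 159.6 in the pooled list (rank 297), 90.8 in replicate 1 (rank 391) and 63.7 in replicate 2 (rank 244). The summit also lay in an intron or 5' UTR of another annotated transcript, so it is exonic in only some transcripts. The GAGAGA run printed above lies within 75 bp of its summit, and the pks-1 region also had GAGAGA or TCTCTC within 75 bp. The next, at X:5429292-5429934, had its summit in coding exon 22 of 30 of pks-1, a polyketide synthase gene. It had a signal of 145.1 pooled (rank 362), 77.2 in replicate 1 (rank 530) and 63.0 in replicate 2 (rank 253), and its summit was 15160 bp from the nearest gene start. These 2 were the exonic regions that ranked among the 830 strongest of both replicates.

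The next strongest, at III:4378632-4379268, lay in the 3' UTR of pals-26, of the pals family named for a shared protein signature, 57 bp before the annotated end of the gene. It ranked 255 in replicate 1 (signal 111.0) and 1119 in replicate 2 (32.6), with a pooled signal of 138.3. The 3' UTR region of zig-11, which encodes a protein with immunoglobulin domains, lay at V:1875597-1876239. Its pooled signal was 103.3, and it ranked 553 in replicate 1 and 1364 in replicate 2 (signal 30.3). The last was in coding exon 5 of 8 of Y53F4B.9 at II:15008448-15009086, with signals of 102.9 pooled, 72.7 in replicate 1 (rank 596) and 35.0 in replicate 2 (rank 932). It was the only region of these 5 with an AAGTCA within 75 bp of its summit. The 5 therefore differed in balance: bca-2 and pks-1 ranked higher in replicate 2, and the other 3 ranked higher in replicate 1.

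The strongest regions below the IDR list lay close together in signal. They were the 3' UTR of F07C6.4 (89.8), col-108 (88.7), dhp-2, a dihydropyrimidinase gene (88.0), hsp-90, which encodes a major cytosolic chaperone (87.2), Y43F8B.2 (87.0) and col-128 (85.9). In the replicates, the signal of hsp-90 was 51.9 (rank 1207) and 40.0 (rank 684), and that of dhp-2 was 50.5 (rank 1275) and 38.4 (rank 749). The nurf-1 region, in a gene for a nucleosome remodelling subunit, had a pooled signal of 81.5 and ranked 2255 in replicate 1 and 562 in replicate 2. Next came picd-1 (80.6) and the 3' UTR of mak-1 (80.5), and the next 3' UTR region after it was that of hlh-30 (77.9). The last 2 are genes for a protein kinase and for a basic helix-loop-helix factor of lysosomes and autophagy. The mak-1 summit was 5 bp before the annotated end of the gene, and that of hlh-30 was 150 bp past the stop codon.

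The shares of exonic regions that recurred in the replicates were below those of all nuclear regions, and the differences were not tested. Replicate 1 held a candidate at 1432 of them (70.5%, 68.5 to 72.5%), against 77.3% of all nuclear regions. Replicate 2 held one at 1288 (63.4%, 61.3 to 65.5%), against 68.8%. Candidates of both replicates overlapped 798 (39.3%, 37.2 to 41.4%), against 49.9%, while 634 recurred in replicate 1 alone, 490 in replicate 2 alone and 109 in neither. The shares were close in coding exons (39.6% in both) and 3' UTRs (38%). Intron regions away from gene starts were also below all nuclear regions, at 74.9% in replicate 1, 64.9% in replicate 2 (63.2 to 66.4%) and 43.9% in both. In replicate 2 the intervals of exonic and intron regions overlapped. The share in both was 49.9% between genes and 60.6% near gene starts and small RNA genes. Recurrence here is not independent of the pooled list, which was made from the same reads.

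Nuclear regions were cut by pooled signal into 5 bands of equal size, and in the strongest band 94.8% of exonic regions recurred in both replicates, against 96.5% of all. In the next bands down to the weakest, the exonic shares were 76.7, 42.7, 23.3 and 8.38%, and the shares of all regions 74.7, 45.7, 22.8 and 9.81%. Exonic regions were 5.32% of the strongest band and 20.2% of the weakest. The part of signal in the lower recurrence was not tested. Across the 798 exonic regions found in both replicates, the rank correlation of the replicate signals was 0.13 (Spearman), against 0.55 over the 6332 nuclear regions found in both. It was 0.41 in introns, 0.49 between genes and 0.71 near gene starts and small RNA genes. These values were not matched on signal, and exonic signals spanned a narrower range (quartiles of 34.4 and 44.3, against 35.2 and 52.0 for all). These correlations run across regions of the same 2 libraries and describe them only.

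A few exonic regions ranked high in 1 replicate and low or absent in the other. The golg-4 region (pooled signal 85.0) ranked 563 in replicate 1 and had no candidate in replicate 2. The spk-1 region, in a gene for a splicing kinase, ranked 727 in replicate 2 and had none in replicate 1. Those at pqn-54 and tag-241 ranked 773 and 793 in replicate 2 but 3936 and 5484 in replicate 1. Taking a rank of 830 or better in 1 replicate and one below 3000, or no candidate, in the other, 4 of the 15 exonic regions that were strong in either replicate were split in this way (26.7%, 10.9 to 52%). Of the 1057 such nuclear regions, 109 were (10.3%, 8.62 to 12.3%), and the intervals overlapped.

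**Figure D2:**
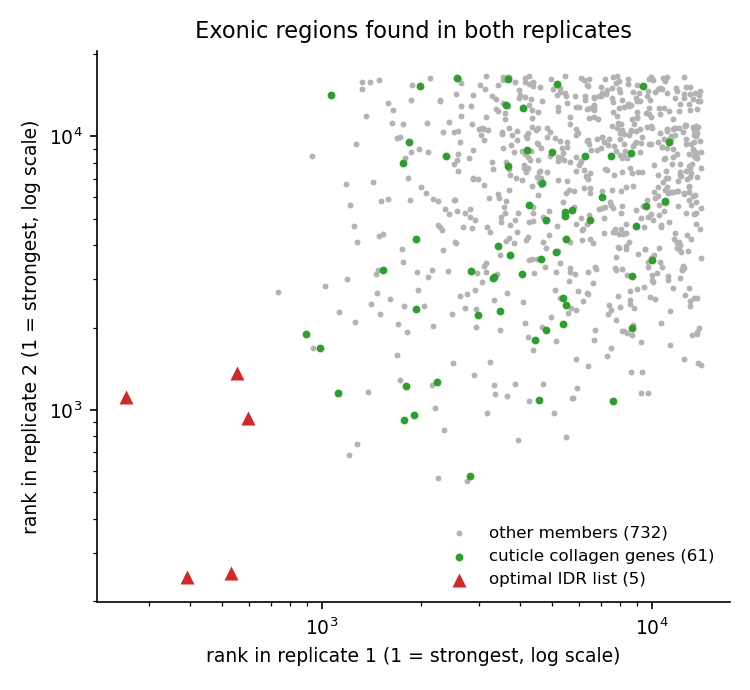
Each point is 1 of the 798 exonic regions found in both replicates, placed by its rank among nuclear regions in replicate 1 (horizontal) and replicate 2 (vertical), on log axes where 1 is the strongest. Red triangles are the 5 regions in the optimal IDR list and green points the 61 in cuticle collagen genes, and only bca-2 and pks-1 are among the 830 strongest of both replicates.

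The number of regions was set against the amount of sequence that could hold one, called eligible here: 19.13 Mb of coding exon and 2.67 Mb of 3' UTR lay over 500 bp from gene starts and small RNA genes. Coding exons held 86.6 regions per Mb (exact Poisson interval 82.5 to 90.9) and 3' UTRs 140 per Mb (126 to 155). Introns held 119 per Mb and sequence between genes 112 per Mb under the same limit. Thus coding exons were the sparsest of these classes and 3' UTRs lay above introns, with intervals that did not overlap. Regions of the IDR list were at 0.157 per Mb in coding exons (3 regions) and 0.748 per Mb in 3' UTRs (2 regions). These 2 counts are too small to be set against each other. Introns were at 2.98 per Mb (86 regions) and sequence between genes at 3.96 per Mb (117 regions). The 3' UTRs made up 18.4% of the exonic regions (16.8 to 20.2%) and 12.3% of the eligible bases. When each replicate's own list was placed by the same rule, coding exons held 96.4 and 138 regions per Mb in replicates 1 and 2, and 3' UTRs 162 and 184.

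Base composition was set beside these densities. The median GC content within 75 bp of coding summits was 46.4%, against 40.4% over eligible coding sequence, whereas 3' UTR summits (32.8%) were close to eligible 3' UTR sequence (31.8%). In coding exons, windows (75 bp to each side of a base) under 35% GC held 56.5 regions per Mb and windows of 35 to 45% held 49.2. Windows of 45 to 55% held 141, and windows of 55% or more held 878 (782 to 981). Introns held 77.7, 115, 400 and 1036 per Mb over the same steps, so coding exons were below introns in the first 3 steps and the intervals overlapped in the last. The 3' UTRs were above the other classes under 35% GC, at 125 per Mb (110 to 143), and from 35 to 45%, at 167 per Mb (139 to 199). From 45 to 55% they held 17 regions, at 242 per Mb (141 to 387), below the 400 of introns and the 392 between genes, with intervals that overlapped. The step at 55% was also present in each replicate's own list, with 792 and 869 coding regions per Mb against 61.6 and 94.7 in windows of 35 to 45%. The part of GC content in the densities was not tested.

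**Figure D3:**
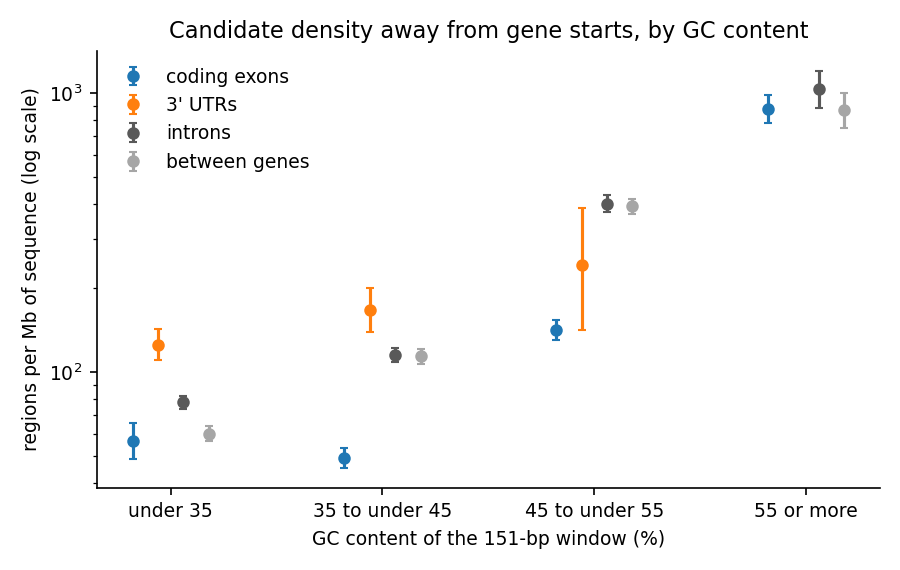
Candidate regions per Mb (vertical, log scale) are shown by the GC content within 75 bp (horizontal) in coding exons, 3' UTRs, introns and between genes, all away from gene starts, with exact 95% Poisson intervals as bars. Coding exons go from 56.5 per Mb under 35% GC to 878 per Mb at 55% or more. The 3' UTRs had no region at 55% or more and no point there. Only 0.00247 Mb of eligible 3' UTR lay in that step, which allows up to 1492 per Mb.

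Short sequences were searched within 75 bp of each summit, on both strands. AAGTCA (or TGACTT), the core word of NR2E-type nuclear receptor sites, was present at 6.15% of exonic regions (5.19 to 7.28%), against 5.06% of all nuclear regions. GAGAGA (or TCTCTC) was present at 9.45% (8.26 to 10.8%), against 17.1%. It was at 8.27% of coding and 14.7% of 3' UTR regions. The words can share at most 1 base at their ends. These matches are descriptions of the letters in the window and not binding sites. The 51 bp at the summit occurred at another place in the nuclear genome for 4 exonic regions (0.197%), against 1.21% of all nuclear regions.

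Summit positions were set against the annotated end of the host gene. Of all 2031, 672 (33.1%, 31.1 to 35.2%) had their summit within 500 bp of the annotated end of the host gene, where 26.8% of eligible bases lie. In coding exons the share was 22.7% against 19.1% of bases, and in 3' UTRs it was 79.1% (74.7 to 83%) against 82.3%. By distance, coding exons held 96.9 regions per Mb in the last 100 bp, 92.1 from 101 to 250 bp, 111 from 251 to 500 bp and 80.3 from 501 to 1000 bp. Collagen genes are included in these shares and densities, and many of their summits lay 251 to 500 bp from the gene end. Values without the collagen genes were not computed here, so their part in the 111 per Mb is not known. In 3' UTRs the density was 116 per Mb (96 to 140) in the last 100 bp and 154 (127 to 185) from 101 to 250 bp, with overlapping intervals. Further from the end it was 142 from 251 to 500 bp, 148 from 501 to 1000 bp, 164 from 1001 to 2000 bp and 236 (137 to 377) beyond 2000 bp, so 3' UTR density was lowest in the last 100 bp. The median 3' UTR summit was 165 bp past the stop codon, in 3' UTRs with a median length of 405 bp.

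**Figure D4:**
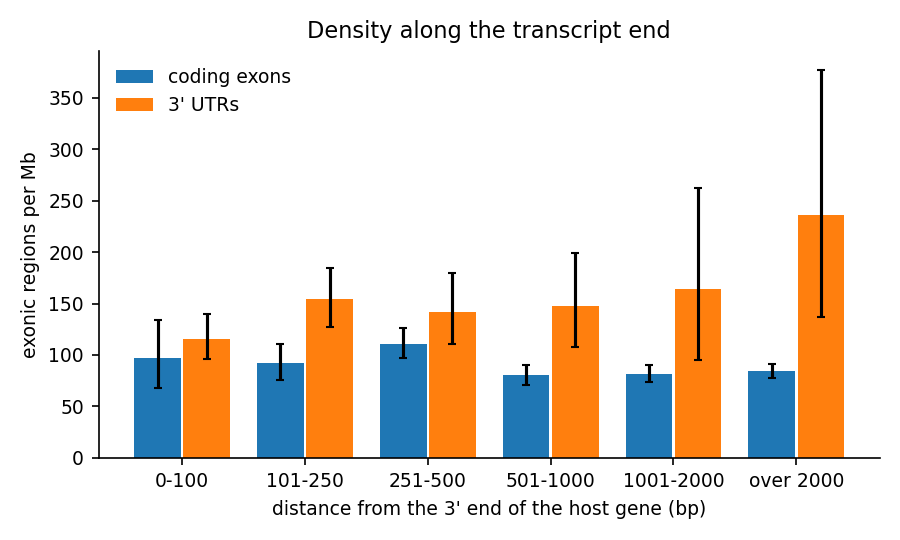
Bars give exonic regions per Mb of eligible coding exon or 3' UTR (vertical) by distance from the annotated 3' end of the host gene in bp (horizontal), with exact 95% Poisson intervals. Coding exons are at 111 per Mb from 251 to 500 bp and 80.3 from 501 to 1000 bp, and 3' UTRs are at 116 per Mb in the last 100 bp. Collagen genes are included, and many of their summits lie 251 to 500 bp from the gene end.

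The last coding exon held 396 of the 1657 coding regions (23.9%, 21.9 to 26%) and 16.2% of eligible coding bases, or 128 per Mb (116 to 141). Internal exons held 1203, at 77 per Mb (72.8 to 81.5). First exons (47 regions, 124 per Mb) and single-exon genes (11 regions, 245 per Mb) held 1.98 and 0.234% of eligible coding bases. Eligible bases of last and internal exons had the same median GC content, 40.4%, while the regions in them had medians of 47.7 and 45.7%. Without the collagen genes described next, the last exon still held 21.9%. In each replicate's own list it held 23.1% in replicate 1 and 20.6% in replicate 2. With the coding sequence cut into 4 equal parts from the 5' end, part 4 held 33.9% of regions (31.7 to 36.2%) against 29.2% of eligible bases, part 2 held 22.8% against 26.6%, and parts 1 and 3 held 14.6% against 14.2% and 28.7% against 30%. A peak is wider than most exons: the usual width was 436 bp, the median exon at a summit was 307 bp, and 259 regions (15.6%) lay whole within 1 coding exon. The summit also fell in an intron or 5' UTR of another transcript for 207 regions (10.2%), and 87 lay inside more than 1 protein-coding gene.

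The densest of the 25 gene lists was that of the cuticle collagens, the small collagen genes whose products the epidermis secretes to build the exoskeleton. It held 94 exonic regions in 89 of 176 genes (50.6%), or 781 per Mb (631 to 956), against 93.2 per Mb for all genes. The list made up 4.63% of the exonic regions and 0.552% of eligible bases. All but 1 of the 94 had their summit in a coding exon, 54 of them in the last. The list includes col-99, which encodes a membrane-spanning collagen and held 3 of the regions. In the separate lists of the replicates, genes of this list held 88 regions (731 per Mb) in replicate 1 and 87 (723 per Mb) in replicate 2, in 85 genes each time.

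Collagen regions also had higher signals than the rest of the set. Their median pooled signal was 46.3, against 37.8 for exonic regions outside the list. Of the collagen regions, 61 (64.9%) recurred in both replicates, against 39.3% of exonic and 49.9% of all nuclear regions. These shares were not matched on signal. In the signal band from 43.9 to 56.7, which holds the collagen median, 76.7% of exonic and 74.7% of all nuclear regions recurred in both. At matched GC content the gap in signal was smaller: the medians were 46.7 against 42.0 in coding windows of 55% GC or more, 41.6 against 38.4 from 45 to 55%, and 35.8 (2 regions) against 36.5 from 35 to 45%. A further 17 collagen regions recurred in replicate 1 alone, 15 in replicate 2 alone, and 1 in neither. Of the 94, 15 (16%) ranked among the 2000 strongest nuclear regions. That share was 3.79% over all exonic regions and 15.8% over all nuclear regions, so collagen regions stood above the exonic set and near the nuclear background. None was in the IDR list, which held 0.246% of all exonic regions, so this absence is not read as a result. The strongest, at IV:1769141-1769576 in the last of 2 coding exons of col-108, had signals of 88.7 pooled, 53.7 in replicate 1 (rank 1117) and 32.3 in replicate 2 (rank 1157). The col-128 region, at IV:11550860-11551295, had 85.9, 59.9 (rank 898) and 26.9 (rank 1891). Both were within the 2000 strongest of each replicate and outside its 830 strongest.

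Among the other collagen regions, dpy-13, one of the genes whose loss makes worms short and fat, had signals of 77.9 pooled, 42.6 in replicate 1 and 34.7 in replicate 2. The col-141 region had 77.8, 36.6 (rank 2819) and 43.1 (rank 571), the highest rank of these in replicate 2. The sqt-2 region (61.0), in a gene whose mutations alter body shape, was found in replicate 1 (rank 1087) and not in replicate 2. The regions of col-2 (55.8) and col-34 (54.4) ranked 1067 and 1981 in replicate 1 but 14194 and 15243 in replicate 2. Collagen regions were thus found in most cases in both replicates, with uneven ranks. The genes in this group were named after their values were seen.

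Collagen genes are rich in GC, and this was measured beside the density. The median GC content at collagen summits was 60.3%, and 53.8% of the list's eligible coding bases lay in windows of 55% GC or more, against 1.54% of coding bases outside it. Within such windows, collagen genes held 73 regions, or 1239 per Mb (971 to 1558), and other coding exons 236, or 804.9 per Mb (705 to 914). In windows of 45 to 55%, collagen genes held 18 regions, at 494 per Mb (293 to 781), and other exons 138.2 per Mb (127 to 150). In windows of 35 to 45%, the values were 160 per Mb from 2 regions (19.3 to 577) and 49.1 per Mb. The difference at matched GC was thus smaller than the difference over all sequence, and in the 2 upper steps the intervals did not overlap. The part of GC content in the collagen density was not tested.

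**Figure D5:**
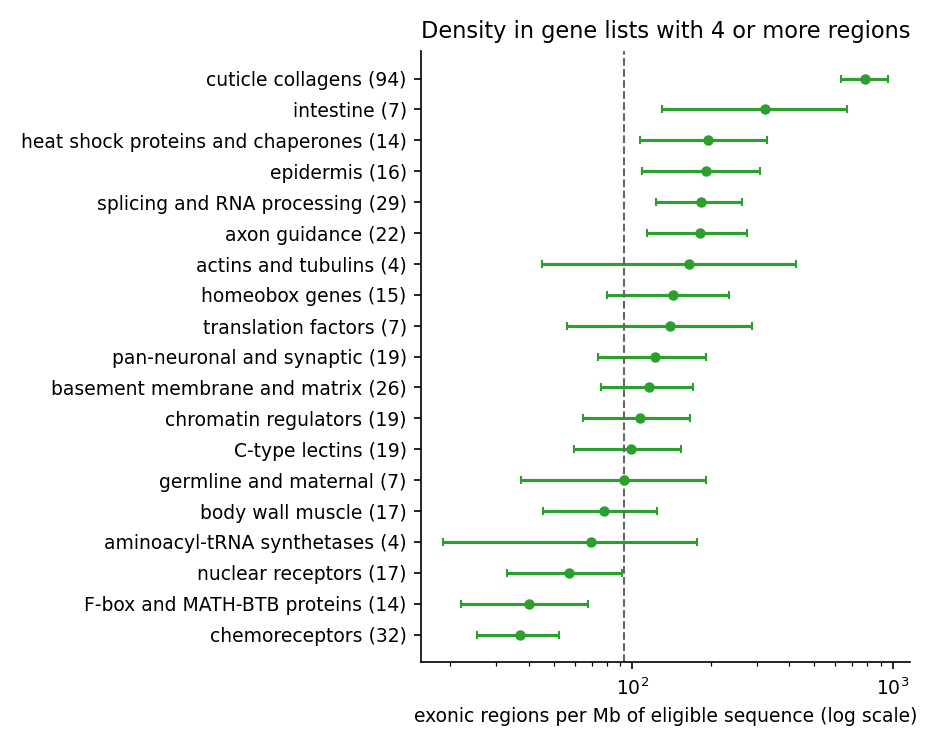
Exonic regions per Mb of eligible sequence (horizontal, log scale) are shown for the gene lists with 4 or more regions, whose number is in brackets, with exact 95% Poisson intervals. The dashed line is the 93.2 per Mb of all genes, and the cuticle collagens stand at 781 per Mb, apart from all other lists drawn except the intestine list, whose interval overlaps theirs.

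The other lists lay much closer to the background of 93.2 per Mb. Above it, with intervals that did not include it, were intestine genes (7 regions, 324 per Mb, 130 to 667), heat shock proteins and chaperones (14 regions, 195 per Mb), epidermal genes (16 regions, 191 per Mb), splicing and RNA processing genes (29 regions, 183 per Mb) and axon guidance genes (22 regions, 182 per Mb, 114 to 276). Their median signals, from 35.9 to 39.9, were near that of all exonic regions. Between 34.5 and 42.9% of their regions recurred in both replicates, around the 39.3% of all exonic regions and below the 49.9% of all nuclear regions. Their regions lay in 7 intestine, 11 heat shock and chaperone, 9 epidermal, 24 splicing and 18 axon guidance genes. The intervals take regions as independent and make no allowance for the 25 lists examined. The leading regions were at pgp-3, a P-glycoprotein gene (signal 52.1), hsp-90, dlg-1, a scaffold of epithelial junctions (59.2), rsp-2, a splicing factor gene (54.1), and unc-51, a kinase gene of autophagy and axon growth (61.9). The unc-51 region ranked 2078 in replicate 1 and 11184 in replicate 2, and that of dlg-1 had no candidate in replicate 2. None of these lists above the background had a region in the IDR list. That list held 0.246% of all exonic regions, so its absence from lists of this size is not read as a result.

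Below the background were chemoreceptor genes, with 32 regions in 866 kb (36.9 per Mb, 25.3 to 52.1), and F-box and MATH-BTB genes, with 14 in 349 kb (40.1 per Mb, 21.9 to 67.3). Nuclear receptor genes held 17 regions (56.9 per Mb, 33.1 to 91). In these 3 lists, 5.28, 8.1 and 14.2% of eligible coding bases lay in windows of 45% GC or more, against 24.6% over all genes, 87.1% for collagens and 30.7 to 51% for the lists above the background. For the lists of the next paragraph, whose intervals included the background, 30.7 to 74.3% lay in such windows. This share therefore did not separate the lists above the background from those at it. The vitellogenins, yolk protein genes with 74.3% of their coding bases in such windows, held 0 regions in 26.9 kb, which allows up to 137 per Mb. The 10 genes of the fax-1 genetics list held 0 in 18.6 kb, which allows up to 198 per Mb.

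Homeobox (15 regions, 143 per Mb), translation factor (7 regions, 139), pan-neuronal and synaptic (19 regions, 122), matrix (26 regions, 116), chromatin (19 regions, 107), C-type lectin (19 regions, 98.8), germline (7 regions, 93.1) and body wall muscle genes (17 regions, 77.7) had intervals that included the background. So did actins and tubulins (4 regions, 165), aminoacyl-tRNA synthetases (4 regions, 69.1) and, with 1 to 3 regions each, neuropeptides, pharyngeal muscle, histones and ribosomal proteins. Among the homeobox genes, the leading region was in the last of 8 coding exons of unc-30, which specifies GABA neurons. It had a signal of 66.5 pooled, 49.8 in replicate 1 (rank 1324) and 13.0 in replicate 2 (rank 15761). In unc-26, the synaptojanin gene, the region lay in the 3' UTR 5 bp past the stop codon, with signals of 69.8 pooled, 34.6 in replicate 1 and 31.6 in replicate 2. The let-2 region, in a gene for a collagen IV chain of basement membranes, had 64.0, 33.4 and 32.5, and the sequence within 75 bp of its summit was 58.9% GC. In his-24, a linker histone gene, the values were 59.5, 53.6 and 25.3. The medians of pooled signal in these lists ran from 35.7 for aminoacyl-tRNA synthetases to 59.5 for the 1 histone region, against 37.9 for all exonic regions. They were 44.6 for chromatin regulators and 54.1 for the 3 neuropeptide regions, but 35.8 for matrix genes, 36.1 for actins and tubulins and 36.8 for translation factors. Of the 19 chromatin regions, 12 (63.2%) were in both replicates, against 39.3% of exonic and 49.9% of all nuclear regions. The other lists of this paragraph with 7 or more regions ranged from 28.6 to 47.4%. These shares were not matched on signal. In the signal band from 43.9 to 56.7, which holds the chromatin median, 74.7% of all nuclear regions were in both replicates.

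The 2031 regions lay in 1798 host genes, 9.83% of the 18299 genes with eligible sequence, and 1603 of these held 1 region each. Host genes had a median coding length of 1491 bp, against 1026 bp for all genes with eligible sequence. Their median eligible sequence was 1569 bp, against 853 bp, so host genes also offered more sequence in which a summit could lie. The most regions, 7, were in vab-10, a spectraplakin gene that links cytoskeletal filaments, where they spread over 23774 eligible bp and had signals of 32.2 to 56.8. The mbk-2 gene, for a kinase of the oocyte-to-embryo transition, held 6 in 4405 eligible bp, 3 of them in its 3' UTR, with signals of 35.5 to 79.0. Of its 6 regions, 2 recurred in both replicates. The C-type lectin gene clec-78 and the cadherin gene cdh-12 held 5 each, and set-16, for a histone H3 lysine methyltransferase, held 4, of which 3 recurred in both replicates. In clec-78 and cdh-12, 4 of the 5 did. Over all exonic regions this share was 39.3%, and over all nuclear regions 49.9%, and these counts are too small to be read against either. Regions in 1 gene share their host and are not replicates of each other.

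By chromosome, exonic regions were densest on III (117 per Mb of eligible sequence, 105 to 129) and II (108 per Mb, 97 to 119), followed by IV (101), I (96.1), X (79.2, 70.1 to 89.2) and V (67.8, 60.5 to 75.8). The intervals of neighbours in this order overlapped throughout. Those of V and X lay below those of III, II and IV.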

How the data were processed

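The authors deposited narrowPeak lists on the ce11 and ce10 builds for each replicate, for the pooled replicates and for the optimal IDR peaks. The deposited signal (a score per peak), −log10 q value and summit offset (the bp from the start of a peak to its summit) were read by column place. The q value was not used further. Each list, pooled or single, was called with a control file, per the metadata texts. The sources used here give no aligner, caller or depth. The ce10 lists were not used here.

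Overlapping ce11 rows (at least 1 bp) were merged and took the summit and signal of their strongest row. Mitochondrial regions were left out. Ranks run over nuclear merged regions of a list. Summits were placed on WBcel235 with Ensembl release 115, whose chromosome names and lengths fit the lists. Where transcripts overlap, the one with the longest coding sequence gave the exon. Regions recurred when they overlapped a candidate by at least 1 bp. Densities were regions per Mb of eligible bases with exact Poisson intervals, and shares have Wilson intervals, at 95%. Collagen and other gene lists were matched by symbol. Names that matched no symbol were cog-2, eft-1, eft-2, eft-3, eft-4, opt-2, ram-4, tnc-1 and daf-21, whose gene was matched as hsp-90. Placement was checked on 600 simulated positions, of which 600 were placed correctly. Python 3.11.15, numpy 2.4.6, scipy 1.17.1 and matplotlib 3.10.9 were used.

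The members and lists were chosen with earlier results of these data known. Named genes were every exonic region in the IDR list, the 15 strongest, the 5 strongest in 3' UTRs, the 5 hosts with the most regions, the strongest of each list, those ranked very differently in the replicates, and the 3 regions on either side of the 500-bp limit. Not every gene that met the rule is described. Alternatives were other limits (250 and 1000 bp), starts of all transcripts, midpoints, unmerged rows, 50% overlap, the stronger 50% of regions, other windows and each replicate's own list. The collagen counts per replicate were added after seeing the data.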

Additional observations from a re-analysis of the deposited data

How the results depend on the processing

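Over 79 alternatives, 60 kept their value within its interval or its count within 1.5 times, and 19 moved. Restricting to the stronger 50% of nuclear regions left 755 exonic regions, with 0.662% in the IDR list (12.3% of all such regions), 90.9% recurring in replicate 1 (93.4% of all), 81.3% in replicate 2 (85.3%) and 72.5% in both (78.9%), and a median signal of 47.2. Asking for 50% overlap gave 60.8% in replicate 2 and 36.2% in both, against 66.1 and 46.7% of all regions. With unmerged rows the IDR share was 0.419%, within its interval though more than 1.5 times the reported 0.246%, against 7.37% of all nuclear rows. A limit of 1000 bp gave a 3' UTR share of 20.4% and a transcript-end share of 30.9%, and counting starts of all transcripts gave a transcript-end share of 35.4%. The median GC content in 51-bp windows was 45.1%. Within 150 bp, AAGTCA was at 11.2% of exonic regions (10.4% of all) and GAGAGA at 18.2% (28.1% of all). With each replicate's own list in place of the pooled one, there were 2276 to 3127 exonic regions, the median pooled signal, read where they overlapped a pooled region, was 40.3 to 40.5, the 3' UTR share 15.7 to 19%, the transcript-end share 30.1 to 33.7% and the IDR share 0.16 to 0.22%; the higher count was without replicate 1. Collagen regions then numbered 87 to 88 in 85 genes, an alternative chosen after seeing the data. Some shifts follow from the setting itself. Keeping only the stronger regions must lower the count and raise the median signal, and a wider window can only add matches to a word. The cause of the other shifts was not tested. No paired analysis was possible because there was 1 group. With depth unknown, weak candidates cannot be told from background in these lists, and the signal has no stated scale.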
